A study of Macaca fascicularis with 6 samples.

Results

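Within the fibrous tissue that filled empty chondral defects of the cynomolgus monkey knee (cyFT), 84 of 320 cells had reads of *COL2A1*, the type II collagen gene of cartilage, and none of *COL1A1*, the type I collagen gene of fibrous tissue and bone. These 84 cells were chosen by those 2 counts alone, out of 1280 cells of 4 samples, and are compared here with the 276 cells of intact articular cartilage (cyAC) chosen in the same way. Both tissues came from wild-type animals labeled as 3 to 4 years old, were digested with Liberase, marked with hashtag antibodies, sorted as live cells and pooled into 1 TAS-Seq library, an amplification method for transcriptomes captured on beads. The labels give 4 months from the operation, in which the defects of the empty group received nothing. They do not say how many animals were pooled, so each tissue was 1 sample, no test was possible, and every interval below covers counting error only. The other 2 samples were cartilage grown from donor iPS cells and recovered from treated defects (post-transplant cyiPS-Cart) and the same kind of cartilage before transplantation (pre-transplant cyiPS-Cart), each from another library. The donor iPS cells carried an EGFP reporter, and the label of the post-transplant sample gives the genotype as wild type.

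Chondrocytes build a matrix of collagen II, IX and XI fibrils filled with aggrecan, and a chondrocyte of the articular surface also secretes lubricin, the product of *PRG4*. In growth cartilage and in the calcified layer next to bone, chondrocytes enlarge, turn on type X collagen and alkaline phosphatase, and allow mineral to form. Scar that fills a defect is made mainly by fibroblastic cells that deposit type I collagen.

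Depth differed between the groups, and levels are therefore given as counts per 1e+06 reads of the cell (CPM). The 84 cells held 13512 to 168293 reads each with a median of 47802.5, against a median of 30768.5 in the 276 cyAC cells and 21830 in the 170 cyFT cells with *COL1A1* reads alone. Median genes per cell were 2980, 2296.5 and 1992 in the same order, and the median mitochondrial share was 2.72%, 3.27% and 4.23%. The lowest counts above 0 in this library were 211 for *COL2A1* and 76 for *COL1A1*, but the authors' background correction sets low counts to 0, so a cell listed at 0 may have held reads and how near cells lay to the rule cannot be read from the matrix. The member just inside the rule had 358 *COL2A1* reads and the next had 531, whereas the cyFT cells just outside it, with reads of both collagens, had 113 and 200 *COL1A1* reads. No cell index of this library recurred in either of the other 2 libraries.

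The cells carried the genes of chondrocytes. The list of 9 chondrocyte markers holds *COL2A1*, which the rule used, and *CNMD*, and the count without these 2 was added after the data were seen. At least 6 of the other 7 had reads in 82 of 84 cells (97.6%), in 251 of 276 cyAC cells (90.9%) and in 80 of 170 *COL1A1*-only cells (47.1%), and after thinning to 17226 reads per cell in 96.3%, 92.4% and 37.7%. The summed level of the 7 had medians of 22081, 25282 and 5878 CPM in the same order, so fibrous cells held these genes too, at a lower level. *ACAN*, the core protein of aggrecan, averaged 4173 CPM in the 84 cells and 5820 CPM in cyAC. *SOX9*, the transcription factor of the chondrocyte lineage, was found in 75 of the 84 cells and averaged 524 CPM over all 84, against 472 CPM in cyAC. Fibroblast markers other than *COL1A1*, which the rule used, were present as well: at least 3 of 11 had reads in 64 of 84 members (76.2%), in 198 of 276 cyAC cells (71.7%) and in 169 of 170 *COL1A1*-only cells (99.4%). After thinning the shares were 54.9% of members and 63.5% of cyAC cells, the reverse order. Their summed level ran from 473 to 26147 CPM with a median of 2112, against a median of 3841 CPM in cyAC and of 54912 CPM in *COL1A1*-only cells. *COL1A2*, the partner chain of type I collagen, had reads in 1 member, at 21894 CPM.

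Cells of blood and vessels were scarce. At least 3 pan-immune markers had reads in 1 of the 84 cells and at least 3 macrophage markers in 2, and 0 cells reached 3 T cell or 3 endothelial markers. The summed pan-immune, macrophage and endothelial markers had a median of 0 CPM, with highest cells at 1246, 3322 and 399 CPM, and the summed T cell markers a median of 12.4 CPM and a highest cell at 1181 CPM. Of the 7 T cell markers *CD3E* and *TRAC* were listed at 0 in every member, while *CD2*, *CD3D* and *CD3G* had reads in 23, 18 and 11 members and *IL7R* in 1. Of the 9 endothelial markers 5 were listed at 0, among them *VWF*, *KDR* and *EMCN*, as were the 2 erythroid markers. The leading genes of these lists were low, with *CD14* of macrophages at 12.8 CPM, *CD52* at 12.1 CPM, *CD2* at 14.1 CPM and *PECAM1* at 1.70 CPM. Mural markers had a higher sum than in cyAC, with medians of 487 and 24.6 CPM, and nearly all of it was *TAGLN*, while *ACTA2* averaged 3.63 and 5.42 CPM and *CNN1* was listed at 0 in the members. Osteoblast markers also stood higher: at least 3 of 8 had reads in 27 of 84 members (32.1%, 22.4 to 43.2) and in 4 of 276 cyAC cells (1.45%, 0.396 to 3.67), with *SP7*, which defines osteoblasts, listed at 0 in both. Of the 4 measured, *IBSP*, *ALPL* and *SPP1*, which mineralizing chondrocytes use too, are described below, and *PHEX*, a peptidase of bone cells, averaged 57.6 and 18.7 CPM, and 21.4% and 11.2% of the cells had its reads. The part of osteoblasts or mural cells in the results was not tested.

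Of the 4 genes taken as markers of this population, 2 were more than 2-fold higher than in cyAC. *COL2A1*, which the rule used, ranged from 18957 to 109370 CPM in the members with a median of 42505, within the range of cyAC, whose median was 49066 CPM. *SERPINA3*, an acute-phase protease inhibitor, ranged from 228 to 14070 CPM with a median of 6565, and its mean of 6828 CPM was 1.37-fold that of cyAC. *CNMD*, which encodes chondromodulin, an anti-angiogenic protein of avascular cartilage, had reads in 81 of 84 members (96.4%, 89.9 to 99.3) and in 106 of 276 cyAC cells (38.4%, 32.6 to 44.4). Its median was 2347 CPM in the members and 0 in cyAC, and its mean was 4.00-fold higher, at 2309 against 576 CPM. In the *COL1A1*-only cells, which should lack it and were shallower (21830 against 47802.5 reads at the median), 2 of 170 had *CNMD* reads. *SERPINA1*, the alpha-1 antitrypsin gene, had reads in 82 members and 157 cyAC cells, with medians of 2907 and 288 CPM and a 4.77-fold higher mean. The ranges overlapped for both genes, as the highest cyAC cells reached 5890 CPM of *CNMD* and 9761 CPM of *SERPINA1*. Thinned to 17226 reads per cell, which left out 2 members and 27 cyAC cells, *CNMD* was found in 97.6% and 41.0% and *SERPINA1* in 98.8% and 57.0% of the cells.

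**Figure D1:**
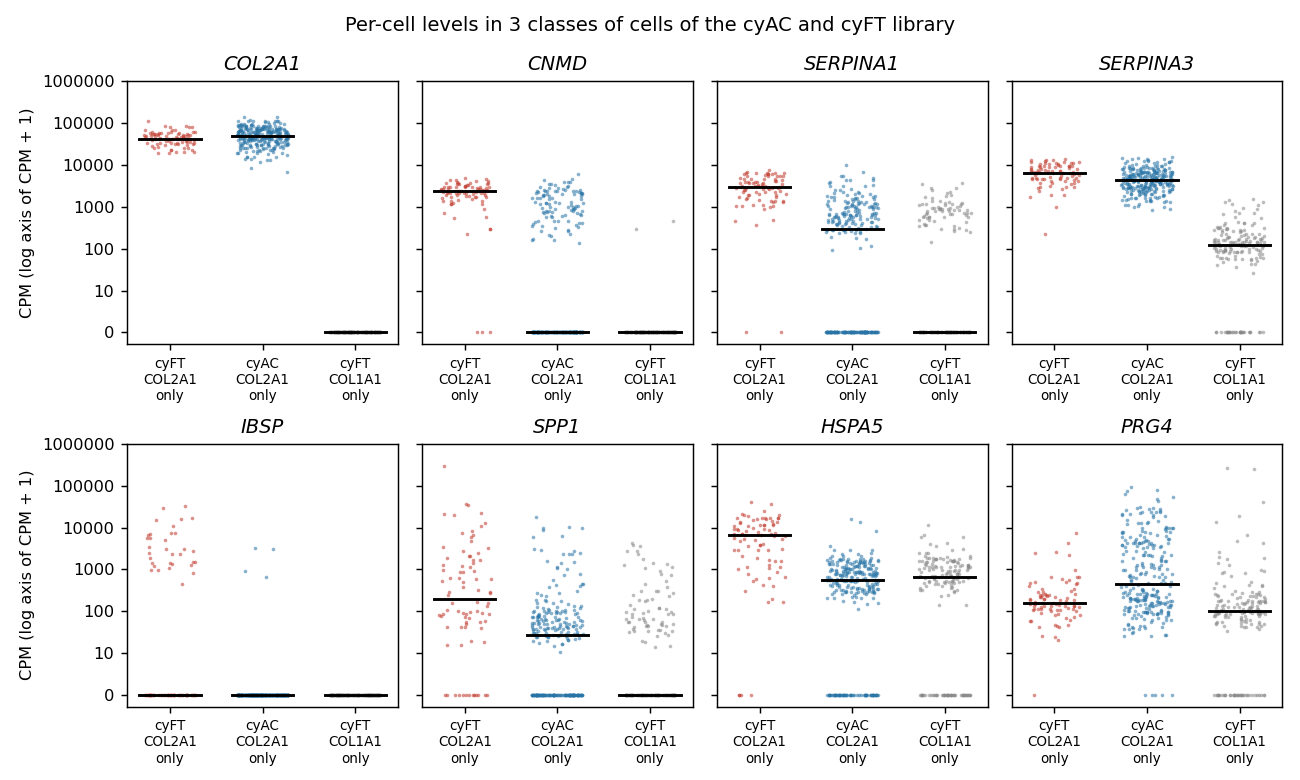
Level of 8 genes in each cell (points, CPM on a log axis of CPM + 1, with cells without reads at 0) of the 84 COL2A1-only cyFT cells, 276 COL2A1-only cyAC cells and 170 COL1A1-only cyFT cells; black lines are medians. CNMD and SERPINA1 lie higher in the cyFT COL2A1-only cells than in cyAC with overlapping ranges, IBSP has reads in 33 of them and 4 cyAC cells, and the highest PRG4 cell is at 7548 CPM in them and 90981 CPM in cyAC.

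The mean of per-cell CPM was compared over the 3226 genes that reached 50 CPM in either group, on the scale log2(CPM + 1). A ratio of 1 on this scale, a doubling, was taken as the size from which a gene is called higher or lower. The cells were chosen on 2 genes of this same contrast, so all counts are descriptions. At least 2-fold higher in the members were 223 genes (6.91%), and at least 2-fold lower were 190 (5.89%). The median log2 ratio was -0.02, and the middle 50% of genes lay between -0.38 and 0.36. The measured genes of collagens IX and XI lay between -0.34 and 0.01, with *COL9A1* at 6532 CPM in the members and 7722 in cyAC and *COL11A2* at 4938 and 4901 CPM. *COL2A1*, which the rule used, was at -0.22. Most of all genes were within 2-fold as well. The 4 measured chondrogenic transcription factors, among them *SOX5* and *TRPS1*, lay between 0.00 and 0.30.

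**Figure D2:**
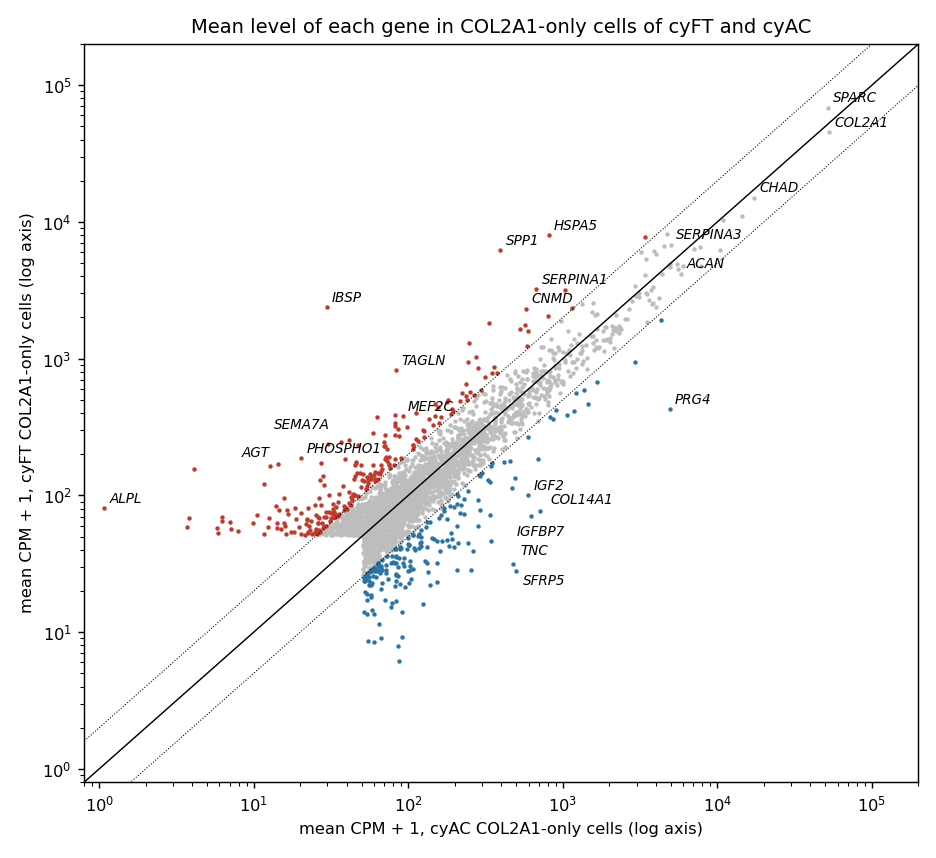
Mean CPM + 1 of each of 3226 genes in the 276 COL2A1-only cyAC cells (x, log axis) and the 84 COL2A1-only cyFT cells (y, log axis); the solid line marks equal levels, dotted lines 2-fold, red points the 223 higher and blue points the 190 lower genes. IBSP, ALPL, SPP1 and HSPA5 stand above the upper dotted line and PRG4, TNC and SFRP5 below the lower one, while COL2A1, CHAD, SPARC and ACAN lie within 2-fold.

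Genes of hypertrophy and mineralization had the highest median of the 20 lists. Of the 16 listed genes, 9 reached 50 CPM, 7 of these were at least 2-fold higher and 0 lower, against 6.91% and 5.89% of all genes, and the median log2 ratio of the list was 2.16 against -0.02. Of the higher genes *IBSP*, *ALPL*, *PHOSPHO1* and *COL10A1* reached the floor only in the members, so their high level there also decided that they were measured. *SPP1*, *MEF2C* and *PTH1R* reached it in both groups. *IBSP*, bone sialoprotein, a mineral-binding protein of bone and calcifying cartilage, had reads in 33 of 84 members (39.3%, 28.8 to 50.5), from 438 to 32134 CPM with a median of 2683 among those 33. In cyAC it had reads in 4 of 276 cells (1.45%), between 659 and 3177 CPM. No *COL1A1*-only cell was listed with any, and 0 of 170 allows a share of cells with reads of up to 1.76% for counting error only, at their lower depth and after the correction that sets low counts to 0. The mean was 2386 against 28.6 CPM, a log2 ratio of 6.34, and after thinning the shares were 40.2% and 1.61%.

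*ALPL*, tissue-nonspecific alkaline phosphatase, which frees phosphate for mineral, had 626 reads in 15 members and 1 read in 1 cyAC cell. The means were 79.8 and 0.0813 CPM, a log2 ratio of 6.22 on the scale of CPM + 1, and per summed reads the ratio was 1442, with a counting interval of 258 to 57035. That interval counts reads, which may be amplified copies, and not molecules or cells. The median was 0 in both groups. *PHOSPHO1*, the phosphatase that releases phosphate inside matrix vesicles, was found in 44 members and 40 cyAC cells (52.4% and 14.5%), at 185 and 19.3 CPM. *MEF2C*, a transcription factor that drives hypertrophy, was found in 66 and 113 cells, at 380 and 90.7 CPM, with 26 members above the 95th percentile of cyAC. *PTH1R*, the parathyroid hormone receptor of prehypertrophic chondrocytes, fell outside the rule for named genes and is added after its values were seen. It averaged 322 CPM over all 84 members, 61 of which had reads, and 80.9 CPM in cyAC.

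For the other 2 genes a single cell carried much of the mean. *SPP1*, osteopontin, had reads in 71 of 84 members and in 159 of 276 cyAC cells, with medians of 204 and 26.4 CPM. The mean of 6187 against 391 CPM (log2 ratio 3.98) owed 56.1% of its sum to 1 member at 291565 CPM, a cell of 59774 reads that also held 29511 CPM of *IBSP*. Without the highest cell of each group the *SPP1* mean was 2749 CPM and the log2 ratio 3.07, and 20 members lay above the 95th percentile of cyAC. *COL10A1*, type X collagen of hypertrophic chondrocytes, had reads in 11 members (13.1%, 6.72 to 22.2) and 13 cyAC cells (4.71%, 2.53 to 7.92), and 1 member gave 55.3% of its sum. Its log2 ratio of 2.16 became 1.33 without the highest cells. *ENPP1* and *ANKH*, which make and export the mineral inhibitor pyrophosphate, were alike in both groups, at 0.24 and -0.11 on the log2 scale. *RUNX2*, *RUNX3*, *IHH*, *MMP13*, *BGLAP*, *SP7* and *DMP1* did not reach 50 CPM in either group, with *IHH* and *SP7* listed at 0 in every member.

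The mineralization genes were shared out unevenly among the 84 cells. All 15 members with *ALPL* reads were among the 33 with *IBSP* reads. Across the 84 cells *IBSP* and *ALPL* had a Spearman correlation of 0.61, and *IBSP* correlated at 0.40 with *SPP1*, 0.41 with *MEF2C* and 0.45 with *PTH1R*. It correlated at 0.24 with *PHOSPHO1* and 0.13 with *COL10A1*, and *COL10A1* was at -0.08 with *ALPL* and -0.12 with *MEF2C*. The cells share 1 library, and depth correlated with *IBSP* at 0.26 and with *ALPL* at 0.35, which bears on these values, and its part was not tested. Among the 84 cells, 25 had reads of at least 5 of the 7 higher genes, 30 of exactly 3 and 1 of none.

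In the 33 members with *IBSP* reads, *SPP1* had a median of 883 CPM, against 93.7 CPM in the 51 without, and *PTH1R* had medians of 471 and 54.4 CPM. *PHOSPHO1* reads were found in 21 of 33 and 23 of 51 cells, and *COL10A1* reads in 6 and 5. *FRZB*, a secreted WNT antagonist of articular chondrocytes, had medians of 7097 and 3751 CPM, and *CHAD*, a cartilage leucine-rich protein, 17706 and 13147 CPM. In the opposite direction *SERPINA3* had medians of 5227 and 7733 CPM and *COL3A1* of 1256 and 1903 CPM. *CNMD* and *SERPINA1* were close, at 2455 and 2287 CPM and at 3064 and 2797 CPM, so these 2 marked both kinds of member. Median reads per cell were 51564 with *IBSP* and 41711 without.

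**Figure D3:**
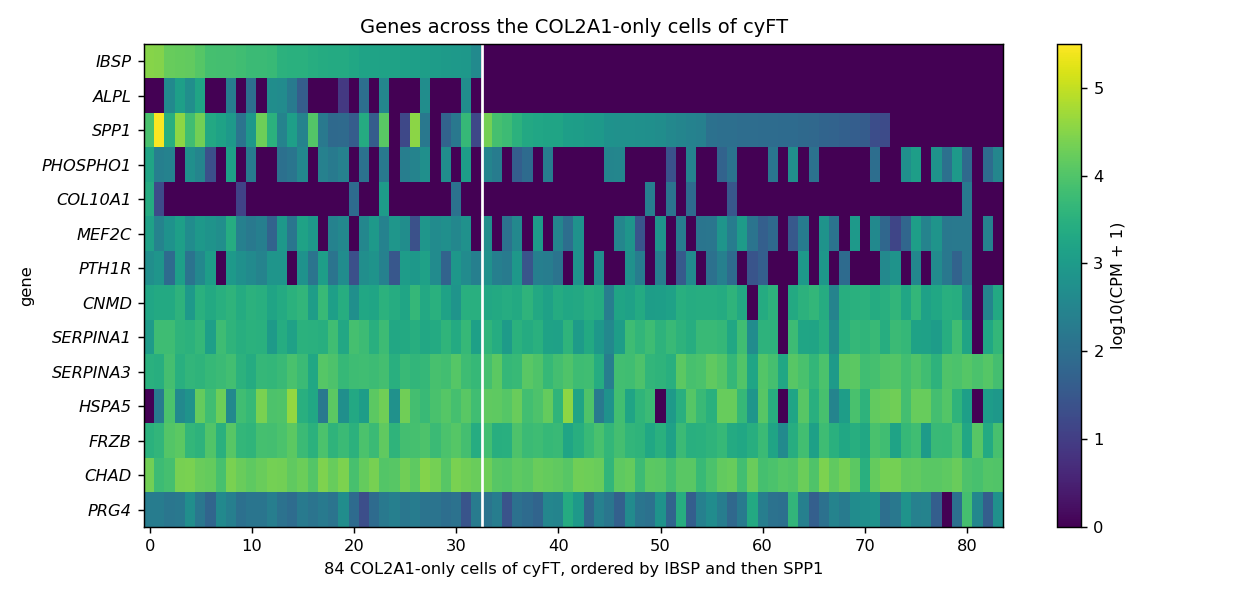
Level of 14 genes (rows, colour as log10 of CPM + 1) in each of the 84 COL2A1-only cyFT cells (columns), ordered by IBSP and then SPP1; the white line divides the 33 cells with IBSP reads from the 51 without. ALPL reads occur only left of the line, in 15 cells, while CNMD, SERPINA1, SERPINA3, FRZB and CHAD have reads on both sides.

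By the rule for named genes, the 12 genes of largest ratio with reads in at least 25% of the members were *IBSP*, *RASD1*, *SPP1*, *SLC8A3*, *AMOT*, *AGT*, *MOXD1*, *GPRC5A*, *SEMA3D*, *HSPA5*, *TAGLN* and *PHOSPHO1*, with log2 ratios from 6.34 to 3.20. *AMOT*, angiomotin, a Hippo pathway scaffold, was the most widely shared of those low in cyAC: 77 of 84 members had reads, with a median of 153 CPM, and 65 lay above the 95th percentile of cyAC, where 69 of 276 cells had reads. *AGT*, angiotensinogen, was found in 54 members and 15 cyAC cells, at 167 and 13.4 CPM, and 51 members lay above the 95th percentile of cyAC. *TAGLN*, transgelin, an actin-binding protein, was found in 62 members with a median of 457 CPM and in 92 cyAC cells with a median of 0. The G protein *RASD1*, the sodium-calcium exchanger *SLC8A3*, the monooxygenase-like *MOXD1* and the guidance cue *SEMA3D* each had reads in 26 to 31 members and in 8 to 15 cyAC cells. *GPRC5A*, an orphan receptor, had reads in 53 and 27.

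*HSPA5* led the genes of protein folding in the endoplasmic reticulum and its stress response. Of 15 measured, 5 were at least 2-fold higher and 0 lower, against 6.91% and 5.89% of all genes, with a median log2 ratio of 0.71. *HSPA5*, the chaperone BiP, had reads in 80 members, with quartiles of 1512, 6548 and 11910 CPM, against 204, 550 and 1045 CPM in cyAC. The mean was 9.93-fold higher and 60 of 84 members lay above the 95th percentile of cyAC, while 11 lay below its median. *DDIT3*, the stress transcription factor CHOP, was 6.67-fold higher, at 244 against 35.7 CPM. *HYOU1*, *ASNS* and *PDIA4* had log2 ratios of 1.37, 1.11 and 1.00, and *HSP90B1* was at 2545 and 1555 CPM. The chaperones and isomerases *CALR*, *PDIA3*, *PDIA6* and *CANX* were at 0.26, 0.25, 0.16 and -0.32. With *PRG4* held low in both groups, as below, 3 of the list were at least 2-fold higher, *HSPA5*, *DDIT3* and *DNAJB9*, the last at 1.31 against 0.99 among all cells, and *HYOU1*, *ASNS* and *PDIA4* were at 0.86, 0.87 and 0.87. The serpins, a family of protease inhibitors, did not stand higher as a group: of 9 measured *SERPINA1* alone passed 2-fold, and *SERPINE2* and *SERPING1* were at 0.30 and -0.82.

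Of 9 measured surface-zone genes, 4 were at least 2-fold lower (*PRG4*, *CRTAC1*, *ABI3BP* and *TSKU*), 4 lay between, among them *ERG* at 0.14 and *SEMA3A* at 0.74, and 1 was higher (*SEMA7A*), against 5.89% lower and 6.91% higher of all genes, with a median log2 ratio of -0.73. *PRG4*, lubricin, had reads in 83 of 84 members and 271 of 276 cyAC cells, with quartiles of 106, 157 and 288 CPM against 137, 449 and 4170 CPM. The highest member had 7548 CPM and the highest cyAC cell 90981 CPM, no member lay above the 95th percentile of cyAC, and the mean was 11.5-fold lower. *SEMA7A*, a semaphorin, went the other way, with reads in 65 members and 50 cyAC cells and means of 237 and 29.3 CPM. *CRTAC1*, a secreted cartilage protein, had reads in 1 member and 32 cyAC cells.

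Because cyAC mixes cells rich and poor in *PRG4*, the comparison was repeated, after the data were seen, with cells of both tissues at or below 288 CPM of *PRG4*, the upper quartile of the members. This left 63 members and 126 cyAC cells, and of 3217 genes measured 249 were higher (7.74%) and 225 lower (6.99%). *IBSP* was then at 2785 and 62.6 CPM, *HSPA5* at 8712 and 893 CPM and *SERPINA1* at 3171 and 603 CPM. *CNMD* was nearer, at 2471 and 1047 CPM (log2 ratio 1.24), with reads in 98.4% and 61.9% of the cells. Of the mineralization list 7 genes were at least 2-fold higher, of the surface-zone list 2 were lower, and of the fibrous list described next 5 were lower. Of the surface-zone genes no longer counted, *PRG4* was at 0.040 by construction, and *CRTAC1*, at 0 and 28.3 CPM, was under the floor of 50 CPM with a log2 ratio of -4.87, while *ABI3BP* and *TSKU* were at -1.54 and -1.36 and *SEMA3A* was higher at 2.60. Of the fibrous genes *COL3A1*, *COL5A1* and *COL12A1* were under 2-fold at -0.99, -0.93 and -0.68, and *LUM*, at means of 1461 and 523 CPM, was past 2-fold in the higher direction. So was *COL1A2*, at 348 and 116 CPM, but it had reads in 1.59% of the cells of each group. Its mean in the members rests on 1 cell. Of 79 named genes past 2-fold among all cells, 66 were past it here, whatever their level.

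Of 17 measured genes of fibrous and pericellular matrix, 8 were at least 2-fold lower than in cyAC, 8 lay between, among them *LUM* at 0.73, and 1, *COL6A3*, was higher, against 5.89% lower and 6.91% higher of all genes, with a median log2 ratio of -0.97. *COL14A1*, a collagen that binds fibril surfaces, had a median of 20.7 CPM against 540 CPM, and 81 of 84 members lay below the cyAC median. *TNC*, tenascin C, had reads in 10 members (11.9%, 5.86 to 20.8) and 120 cyAC cells (43.5%, 37.5 to 49.6), at means of 30.3 and 473 CPM. *COL3A1*, type III collagen, was at 1907 and 4293 CPM, under 2-fold with *PRG4* held low as above, and *COL5A2* at 44.2 and 242 CPM. *FN1* and *SPARC* were alike in both groups, at -0.08 and 0.40 on the log2 scale. The rule removed *COL1A1* reads from both groups, and with the cells that also held *COL1A1* let in, 117 and 279 cells, 1 gene of this list was at least 2-fold lower, and *TNC* and *COL5A2* had log2 ratios of 0.86 and 1.53.

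The 12 genes of largest ratio in the lower direction were *SFRP5*, *TNC*, *PRG4*, *LSAMP*, *BAALC*, *COL14A1*, *IGFBP7*, *ASPN*, *VCAM1*, *ANK2*, *GREM1* and *C1QTNF8*, with log2 ratios from -4.14 to -2.73. *SFRP5*, a secreted WNT antagonist, had reads in 33 members and 141 cyAC cells, with means of 27.1 and 494 CPM and a highest member at 581 CPM. *IGFBP7*, an insulin-like growth factor binding protein, had medians of 14.7 and 338 CPM, and 80 members lay below the cyAC median. *IGF2* had medians of 0 and 387 CPM and was 5.95-fold lower by the mean. *C1QTNF8* had medians of 0 and 180 CPM, and 82 of 84 members lay below the cyAC median. *GREM1*, a BMP antagonist, and *VCAM1*, an adhesion molecule, had means of 27.2 and 45.3 CPM against 206 and 344 CPM.

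Of 12 measured inflammatory and acute-phase genes, 9 were at least 2-fold lower and 1 higher, against 5.89% and 6.91% of all genes, with a median log2 ratio of -1.40. The acute-phase genes *SERPINA3* and *SERPINA1* stood in the serpin list and not in this one, at 0.46 and 2.25. *PTX3*, *CHI3L1*, *TNFAIP6*, *SOD2* and *NFKBIA*, all genes that answer to inflammatory signals, lay between -2.73 and -1.84. With *PRG4* held low *TNFAIP6* was at -0.36, with means of 23.3 and 30.3 CPM, under the floor, the other 4 were between -4.35 and -2.29, and *C1S* and *CHI3L2* were under 2-fold at -0.68 and -0.88. *LIF* was at 675 and 698 CPM and *CLU* at 6271 and 10408 CPM. *CXCL8*, the 1 gene that was higher, had reads in 2 members and 1 cyAC cell, so its ratio rests on single cells, and with *PRG4* held low it was at 0.66. Some lower calls were sparse too: after thinning *CCL2* had reads in 1 of 82 members and 11 of 249 cyAC cells. With *PRG4* held low *PTX3* had reads in 3.17% of members and 11.1% of cyAC cells. *NFKBIA* reads were then found in 44.4% and 37.3%, the reverse order of its means. Among proteases and their inhibitors 1 of 13 was at least 2-fold lower, *MMP3* at 674 and 1650 CPM, and 1 higher, *MMP1*, which had reads in 1 cell of each group.

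**Figure D4:**
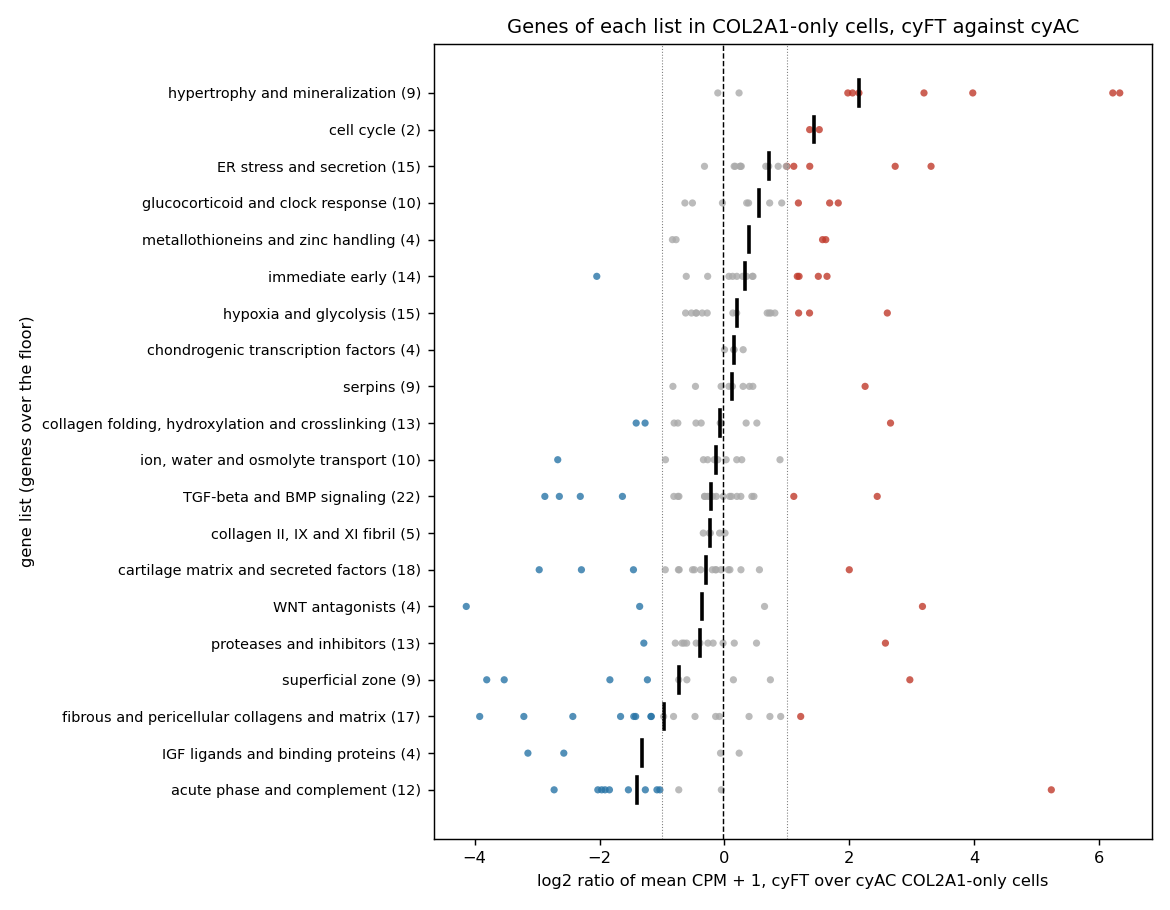
Log2 ratio of mean CPM + 1, cyFT over cyAC COL2A1-only cells (x), for each measured gene (points) of 20 lists, with the number measured in brackets; black bars are list medians, the dashed line is the median of all 3226 genes at -0.02 and dotted lines mark 2-fold. Hypertrophy and mineralization has the highest median, 2.16, and acute phase and complement the lowest, -1.40, while the single points far right in the acute-phase and protease lists, CXCL8 and MMP1, have reads in 2 members and 1 member.

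The remaining lists were mixed, and each count is to be read against the 6.91% of all genes that were higher and the 5.89% that were lower. The 2 of 22 TGF-beta and BMP genes and 1 of 13 collagen-processing genes that were higher are near that share. Of 15 measured genes of hypoxia and glycolysis 3 were higher and 0 lower: the glucose transporters *SLC2A3* (252 and 40.5 CPM) and *SLC2A1* (789 and 345 CPM) and the stress gene *DDIT4* (128 and 49.1 CPM), while *LDHA*, *ENO1* and *HIF1A* stayed within 2-fold. With *PRG4* held low *SLC2A3* was at 1.82, and *SLC2A1* and *DDIT4*, at 0.80 and 0.98, were under 2-fold. Of 14 immediate-early genes 4 were higher, namely *NR4A1*, *FOSL1*, *JUN* and *BTG2* at 1.64 to 1.17, and *IER3* was lower at -2.04, with *FOS* at 530 and 809 CPM. With *PRG4* held low *JUN* was under 2-fold at 0.93 and *NR4A1* at the threshold with 1.00. Of 10 genes that answer to glucocorticoid or the clock 3 were higher, *TSC22D3*, *SGK1* and *PER1*, at 1.82, 1.69 and 1.19. Among TGF-beta and BMP genes 2 of 22 were higher and 4 lower: *BMP6*, a bone morphogenetic protein of hypertrophic cartilage, was at 67.3 and 11.5 CPM with reads in 34 members and 30 cyAC cells, *SMAD7* was at 340 and 157 CPM, and *GREM1*, *TGFBR3*, *TGFB2* and *INHBA* lay between -2.88 and -1.63. With *PRG4* held low *SMAD7* and *INHBA* were under 2-fold, at 0.75 and -0.94.

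Of 4 measured WNT antagonists *DKK3* was higher, with reads in 15 members and 4 cyAC cells, *SFRP5* and *WIF1* were lower, and *FRZB*, the most abundant of the 4 in both groups, was at 5385 and 3447 CPM. The IGF list had 2 of 4 lower and 0 higher. Of 13 genes of collagen processing 1 was higher, *P3H2*, a prolyl 3-hydroxylase (171 and 26.2 CPM, 59 members and 45 cyAC cells with reads), and 2 lower, the crosslinking enzymes *LOX* and *LOXL3*, at -1.41 and -1.27. Of 4 measured metallothionein and zinc-handling genes 2 were higher and 0 lower. *MT1E*, a metallothionein whose reads near-identical copies may share, was at 3191 and 1034 CPM, and the zinc exporter *SLC30A1* at 131 and 43.3 CPM. In the other direction *SLC39A14* and *SLC39A8* were at -0.77 and -0.83. Of 14 cell-cycle genes 2 reached 50 CPM, *PCNA* and *RRM2*, at 1.52 and 1.37, with reads in 38 and 24 members. Among transport genes 1 of 10 differed by 2-fold, the water channel *AQP3* at 7.58 and 53.6 CPM. Of 18 cartilage matrix genes 1, *CNMD*, was higher and 3, *ASPN*, *CILP2* and *OGN*, were lower, with *CHAD* at 15065 and 17226 CPM and *BGN* at 11092 and 14435 CPM. Of the genes that the study names as markers, *TGFBI* was at 117 and 231 CPM, *TF* at 23.9 and 15.8 CPM, and *TMEM176A* was listed at 0 in both groups.

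The *COL1A1*-only cells of the same tissue were farther away than cyAC. Of 3773 genes measured in that comparison, 426 were at least 2-fold higher in the *COL2A1*-only cells (11.3%) and 728 lower (19.3%), and since both groups were defined by the 2 collagens this is again a description. Without *COL2A1* and *COL1A1*, whose direction the rule fixed, the 4 other genes of the collagen II, IX and XI list were higher. Of 19 fibrous matrix genes 14 were lower and 3 higher, and the median log2 ratios of the 2 lists were 2.78 and -3.38. *TNC* was at 30.3 and 5928 CPM and *COL14A1* at 75.3 and 3068 CPM. *SERPINA3*, which differed little from cyAC, was at 6828 and 195 CPM. *AMOT* and *SEMA3D* were no higher than in *COL1A1*-only cells, where they averaged 220 and 183 CPM, in contrast to *AGT*, at 167 and 3.07 CPM. The same held after thinning for *DDIT3* (219 and 228 CPM), *JUN* (584 and 644), *DDIT4* (125 and 212), *COL6A3* (286 and 1139) and *DKK3* (66.5 and 1619). In contrast *HSPA5* was at 8171 and 1031 CPM. Of 9 measured mineralization genes 8 were at least 2-fold higher than in *COL1A1*-only cells, and of 15 ER stress genes 4 were. The 33 cyFT cells with reads of both collagens had no reads of *IBSP*, *ALPL* or *COL10A1*, *CNMD* reads in 27.3% and *HSPA5* at 1527 CPM, with *TNC* at 3099 CPM.

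Neighbors were counted without *COL1A1* and *COL2A1*, in 20 principal components of log2(CPM + 1) over 6671 genes and all 640 cells of the library. Of the 15 nearest neighbors of a member, 76.7% on average were other members, which make up 13.1% of the library, 20.4% were cyAC *COL2A1*-only cells, which make up 43.1%, and 0.794% were *COL1A1*-only cells. Depth was not equalized for these counts, members were deeper than cyAC cells, and the part of depth in the shares was not tested. For 71 of 84 members over 50% of the neighbors were members. For 11 members over 50% were cyAC *COL2A1*-only cells, and these 11 included the 3 members without *CNMD* reads. Their medians were 307 CPM of *HSPA5* and 57.6 CPM of *COL14A1*, against 7059 and 18.8 CPM in the other 73, at median depths of 47214 and 48259 reads. Both genes and *CNMD* were among the 6671 genes that set the neighbors, so differences in them are partly built into this split. The 11 also held the member of highest *SPP1*, and *IBSP* had reads in 3 of them and in 30 of the other 73. The *SPP1* mean was 27035 CPM in the 11 and 3046 CPM in the 73, with medians of 165 and 243 CPM, and the *IBSP* means were 3370 and 2237 CPM. Without that cell the 10 left had means of 582 CPM of *SPP1* and 755 CPM of *IBSP*. In the plane of the first 2 components members and cyAC cells overlapped, and the first followed depth, with a Spearman correlation of 0.93 in size with reads per cell over 640 cells.

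**Figure D5:**
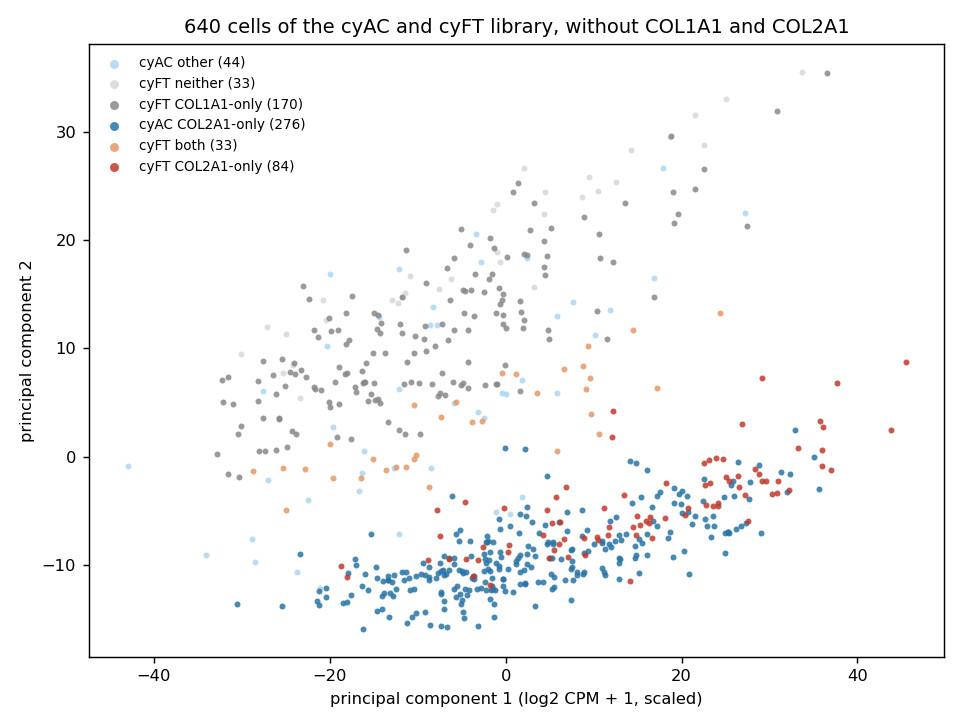
First 2 principal components of log2(CPM + 1), scaled, computed without COL1A1 and COL2A1, for the 640 cells of the library (points, coloured by tissue and by which of the 2 collagens have reads, with the number of cells in the legend). The 84 COL2A1-only cyFT cells lie in the band of the 276 cyAC COL2A1-only cells along the first component, which follows reads per cell, and apart from most of the 170 COL1A1-only cyFT cells along the second.

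The same genes were read in the *COL2A1*-only cells of both cyiPS-Cart samples, which come from other libraries with median depths of 80257 reads (post-transplant, 265 cells) and 52390.5 reads (pre-transplant, 242 cells), so the values stand side by side without a comparison. *IBSP* reads were found in 0 and 0.413% of these cells, and *ALPL* reads in 0 and 8.68%, the latter at a mean of 2.87 CPM. *SPP1* averaged 261 and 767 CPM, *PHOSPHO1* 10.7 and 3.22 CPM, and *HSPA5* 459 and 2512 CPM. *CNMD* reads were found in 40.8% and 87.6%, and *SERPINA1* averaged 3641 and 2555 CPM. *AGT* averaged 194 and 2749 CPM, *AMOT* 351 and 395 CPM, *TNC* 2553 and 2552 CPM and *IGF2* 2882 and 893 CPM.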

How the data were processed

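Transcriptomes of cells from cyAC and cyFT, pooled as 1 TAS-Seq library, and from post- and pre-transplant cyiPS-Cart were taken from a matrix of 14020 genes and 1280 cells, 320 per sample. As deposited, its values are whole counts, one for every gene in every cell. To make these counts, the authors trimmed reads and mapped them with Bowtie2 to Ensembl transcripts of the cynomolgus monkey, called cells at the knee curve's inflection, separated samples by hashtag, set counts taken as diffused background to 0 and applied a mitochondrial threshold not given in the sources used here. The submitters' processing notes name cutadapt 3.4, Bowtie2 2.4.2, R 3.6.3 and GRCh38. No step counting molecular identifiers is described, so counts were read as reads. Cells were assigned to cyFT and cyAC by the hashtag number in the cell name, read through the code supplied with the paper. The matrix of iPS cells and the hashtag libraries were not used here, and no column of per-sample values was left out.

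Counts were scaled to CPM in each cell, and the log2 ratio of mean CPM + 1 was taken over genes with 50 CPM in either group. Shares have exact Clopper-Pearson 95% intervals, and read sums and their ratios have exact Poisson or conditional intervals, none of which covers more than counting error. Where no cell had reads, the limit is what 3 counts allow. With 1 sample per group no p-value was computed. Neighbors, thinning and doublet calling used scikit-learn 1.9.0, numpy 2.4.6 and scanpy 1.11.5 under Python 3.11.15, and TMM factors used edgeR 4.0.16. The ratio step was tested on simulated data. Symbols were used as listed, of which 94.9% were found in a RefSeq table of another assembly, and no coordinates are given.

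The members, gene lists and markers were chosen with earlier results of these data known. Named genes were the 4 markers and the marker genes of the study, the 12 of largest ratio in each direction among genes found in 25% or more of the higher group's cells, from each list up to 6 of largest absolute ratio and up to 2 of highest mean, and up to 3 of highest mean from each list of another cell type. Genes listed at 0, below 50 CPM or given only to account for a list were named after their values were seen.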

Additional observations from a re-analysis of the deposited data

How the results depend on the processing

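The CPM floor set how many genes were counted. With a floor of 20 CPM 467 genes were at least 2-fold higher and 438 lower, with 100 CPM 126 and 97, and with no floor 1236 and 1376, when 8 ER stress genes were higher. Taking only the 5 cyAC cells without *PRG4* reads gave 1091 and 1050, 2 lower acute-phase genes and 0 lower surface-zone genes, and reversed the log2 ratio of *ABI3BP* (0.76), *ASPN* (0.89), *BAALC* (3.20), *CHI3L1* (0.61), *COL5A1* (2.65), *CRTAC1* (2.63), *FBN1* (1.22), *HYOU1* (-0.21), *IER3* (0.20), *INHBA* (9.88), *MMP3* (0.89), *PER1* (-0.61), *PRG4* (8.73), *PTX3* (4.53), *TNFAIP6* (4.49), *TSKU* (0.70), *VCAM1* (1.03) and *WIF1* (0.26). Those values rest on 5 cells. With *COL1A1* ignored in the rule, 1 surface-zone and 1 fibrous gene were lower, and *AQP3* (0.51), *ASPN* (0.32), *COL3A1* (0.43), *COL5A1* (0.046), *COL5A2* (1.53) and *TNC* (0.86) reversed, and the cause was not tested. Reversals are listed only for named genes past 2-fold. Genes under 2-fold changed sign too: outside the 5-cell setting *TGFBI* ran from -1.38 to 1.32 and *FOS* from -0.79 to 5.83.

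Holding *PRG4* low, leaving out the highest cell and requiring 27000 reads were chosen after seeing the data. With *PRG4* low, 3 ER stress genes were higher, 2 surface-zone and 5 fibrous genes lower, and *PRG4* itself was at 0.040 by construction. Of 79 named genes past 2-fold, 77 stayed past it after thinning, 74 with summed reads, 74 with TMM factors, 75 in cells of 27000 reads or more and 77 without the highest cell. The number was 66 with *PRG4* low, 59 with *COL1A1* ignored, 51 against cyAC cells without *PRG4* reads and 41 with medians in place of means, and 78, 73, 61 and 45 kept their sign. Over all settings, the main gene counts, list counts and neighbor shares stayed close to the reported value (counts within 1.5 times) in 116 cases and moved in 16. A doublet caller marked 4 cells of the library (0.625%), 0 of them members. No paired analysis was possible because each tissue was 1 sample and the columns carry no replicate numbers.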
